A study of Mus musculus with 24 samples.

Results

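The genes described here are 10 genes of MHC class I antigen presentation: the heavy chains H2-K1, H2-D1 and H2-T23, the light chain B2m, the peptide transporter subunits Tap1 and Tap2, the loading factor Tapbp, the immunoproteasome subunits Psmb8 and Psmb9, and the transcriptional coactivator Nlrc5. They were taken by gene symbol from the authors' annotation, and 10 of 10 were found among 55487 genes. All 10 passed the filter on low counts, which 14535 genes passed. RNA was measured by poly(A)-selected sequencing of bone-marrow-derived dendritic cells, grown with GM-CSF from marrow of mice aged 8 to 10 weeks, male and female. WT cultures had the genotype ARPC4 Flox/Flox CD11c-Cre -/-, and KO cultures ARPC4 Flox/Flox CD11c-Cre +/-. Both genotypes thus carried floxed Arpc4, which encodes a subunit of the actin-branching Arp2/3 complex, and only KO mice carried the Cre transgene. Each genotype was sampled on days 7, 8, 9 and 10 from 3 mice (numbers 63, 65 and 66 for WT, and 64, 67 and 68 for KO), which gave 8 groups of 3 and 24 libraries. Cre is driven here by the CD11c promoter, so deletion is limited to cells that have come to express CD11c, and the cultures were described as over 90% CD11c+ among the cells in suspension. No separate cultures of 1 mouse were named, so p-values measure the spread between these libraries.

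MHC class I molecules show peptides from inside the cell to CD8+ T cells. The proteasome cuts proteins into peptides, the TAP transporter carries them into the endoplasmic reticulum, tapasin (Tapbp) holds an empty heavy chain and B2m next to TAP, and the filled complex moves to the cell surface. Dendritic cells use this route both for their own proteins and for engulfed ones (cross-presentation), and interferons and inflammatory signals are known to raise most of these genes. Nlrc5 acts at class I promoters together with the RFX factors, and NF-kappa B and interferon regulatory factors bind upstream elements of the same promoters.

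By GENCODE M21 on GRCm38, 8 of the 10 genes lie on chromosome 17. Psmb9, Tap1, Psmb8 and Tap2 are neighbours within 34.3 kb (chr17:34181987-34216321). H2-K1 (chr17:33996017-34000347, minus strand) and Tapbp (chr17:33915899-33929292, plus strand) lie on one side of them, and H2-D1 (chr17:35262730-35267499, plus strand) and H2-T23 (chr17:36029773-36032855, minus strand) on the other. B2m lies on chromosome 2 (chr2:122147686-122153083, plus strand) and Nlrc5 on chromosome 8 (chr8:94434356-94527272, plus strand). The start regions are shown because the heavy chains and the light chain were lower on day 10 than on day 7 in both genotypes while Tap1 was higher. Sequences are RefSeq's for GRCm38.p6, given 5′ to 3′ on each gene's strand as the 250 bases before the start site, and 8 of the 10 members had an entry (not Tap2 or Nlrc5). Capitals mark matches, on either strand, to GGGGATTCC (a kappa B core), GAAANNGAA (an interferon response element core), TTCNNNGAA (an interferon-gamma activated sequence), CCAAT (the CCAAT box) or TGACG (the core of a cyclic AMP element).
H2-K1 (chr17:34000334-34000583, minus strand, from the more downstream of 2 RefSeq starts): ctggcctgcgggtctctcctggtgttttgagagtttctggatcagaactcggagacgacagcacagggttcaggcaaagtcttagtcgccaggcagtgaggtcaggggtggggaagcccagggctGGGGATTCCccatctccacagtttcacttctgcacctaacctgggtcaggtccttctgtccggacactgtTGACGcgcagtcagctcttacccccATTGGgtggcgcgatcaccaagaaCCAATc
H2-D1 (chr17:35262844-35263093, plus strand): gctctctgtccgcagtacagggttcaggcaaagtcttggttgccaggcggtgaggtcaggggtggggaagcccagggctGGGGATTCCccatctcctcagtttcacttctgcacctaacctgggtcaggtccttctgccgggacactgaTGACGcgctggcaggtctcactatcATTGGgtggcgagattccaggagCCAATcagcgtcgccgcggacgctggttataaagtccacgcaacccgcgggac
B2m (chr2:122147437-122147686, plus strand): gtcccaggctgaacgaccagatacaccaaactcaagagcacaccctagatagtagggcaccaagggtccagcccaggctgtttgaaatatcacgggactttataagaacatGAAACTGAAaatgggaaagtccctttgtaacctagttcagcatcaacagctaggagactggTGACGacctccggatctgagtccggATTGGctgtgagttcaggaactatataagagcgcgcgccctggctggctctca
H2-T23 (chr17:36032702-36032951, minus strand): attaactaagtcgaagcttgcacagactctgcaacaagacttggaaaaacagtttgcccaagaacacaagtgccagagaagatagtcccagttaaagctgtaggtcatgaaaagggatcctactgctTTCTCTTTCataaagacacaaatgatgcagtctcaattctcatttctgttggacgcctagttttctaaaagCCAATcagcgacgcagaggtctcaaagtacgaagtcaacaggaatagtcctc
Tap1 (chr17:34187306-34187555, plus strand): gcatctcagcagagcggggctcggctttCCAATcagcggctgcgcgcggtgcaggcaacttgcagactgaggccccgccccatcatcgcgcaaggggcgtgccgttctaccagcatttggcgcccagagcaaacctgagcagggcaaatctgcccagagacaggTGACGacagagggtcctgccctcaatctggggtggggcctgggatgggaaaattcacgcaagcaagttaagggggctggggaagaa
Psmb8 (chr17:34197945-34198194, plus strand): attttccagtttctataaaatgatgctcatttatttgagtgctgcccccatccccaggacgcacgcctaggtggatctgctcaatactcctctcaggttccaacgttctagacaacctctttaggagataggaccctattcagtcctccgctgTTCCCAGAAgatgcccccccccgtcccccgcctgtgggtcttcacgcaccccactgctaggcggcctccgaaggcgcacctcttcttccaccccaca

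The matches were counted over RefSeq windows of 300 bases (250 before and 50 after each start), and none of the matches in the members' windows overlapped another. GGGGATTCC was in the windows of H2-K1 and H2-D1, and in 0.25% of all 32851 windows. GAAANNGAA was in the windows of B2m and H2-T23 against 8.56% of all, and TTCNNNGAA was in that of Psmb8 against 8.3% of all. CCAAT was in 7 of the 8 members' windows against 37.4% of all, and TGACG in 5 of 8 against 20.8%. Tap1 and Psmb9 are divergent neighbours whose 300-base windows share 275 bases, so a match in the one is largely a match in the other. These matches are descriptions of the letters and not evidence of binding. Only exact matches were counted, so a window without a match may still hold a variant of the element.

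Totals ran from 19952047 to 31049798 counts per library. Arpc4 itself, the check of the genotype labels, was lower in KO on each day without overlap, at 169 ± 13.8 CPM (the share of a library's TMM-scaled total) against 192 ± 5.62 on day 7 and 181 ± 6.85 against 220 ± 18.9 on day 10 (SD, n = 3 each). The log2 fold change ran from -0.18 to -0.28 over the 4 days, and none of them passed over all genes (edgeR quasi-likelihood test, adjusted p from 0.177 to 0.69). With counts summed per mouse number over the days it passed as lower in KO (-0.215, edgeR adjusted p = 0.0367), beside 1.46% of all genes. Those sums rest on the KO numbers, which are in doubt (below). The labels do not name the floxed part of Arpc4, so counts outside it are included. The mouse numbers of the KO libraries go against a shared animal across days. Ddx3y, a gene of the Y chromosome, was at 56.5 to 83.9 CPM in 8 libraries and at most 0.136 CPM in the other 16. Among WT libraries the high ones were those of mouse 63 on all days, while among KO libraries they were those labelled 64 on days 7 and 9, 68 on day 8 and 67 on day 10. Comparisons within a day do not use the numbers, but sums over the days of a KO mouse do, and both are given where it matters. Of 8 dendritic cell markers, 7 averaged above 1 CPM on day 7 and 8 on each later day in both genotypes. Itgax, which encodes CD11c, was at 750 to 1661 CPM in every library, while Cd209a and Flt3 went as low as 0.257 and 0.762 CPM. Markers of T, B and NK cells summed to at most 11.3, 8.85 and 3.04 CPM, and the NK markers Gzma and Klra8 were listed among genes at 0 in all 8 groups.

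Per unit of transcript length, B2m was the most abundant of the 10 genes, with a median of 8436 TPM (abundance per unit of gene length; lowest 7242 and highest 9999.7) over the 24 libraries. The classical heavy chains followed, H2-D1 at a median of 2426 TPM and H2-K1 at 1172 TPM, then Tapbp at 305 TPM and the non-classical heavy chain H2-T23, the mouse ligand of NKG2A receptors, at 229 TPM. The machinery that makes and carries peptides was lower: Psmb8 at 113, Tap2 at 97.0, Tap1 at 63.6 and Psmb9 at 37.7 TPM, with Nlrc5 last at a median of 19.6 TPM. B2m, H2-D1 and H2-K1 kept this order in 24 of 24 libraries. Neighbours in the order that overlapped within a group were Tapbp and H2-T23 (3 of 8 groups), Psmb8 and Tap2 (6 groups), Tap2 and Tap1 (2 groups) and Tap1 and Psmb9 (2 groups). The span between the lowest and the highest library was narrow on the CPM scale, from 1.46-fold for Tapbp to 2.11-fold for H2-D1.

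**Figure D1:**
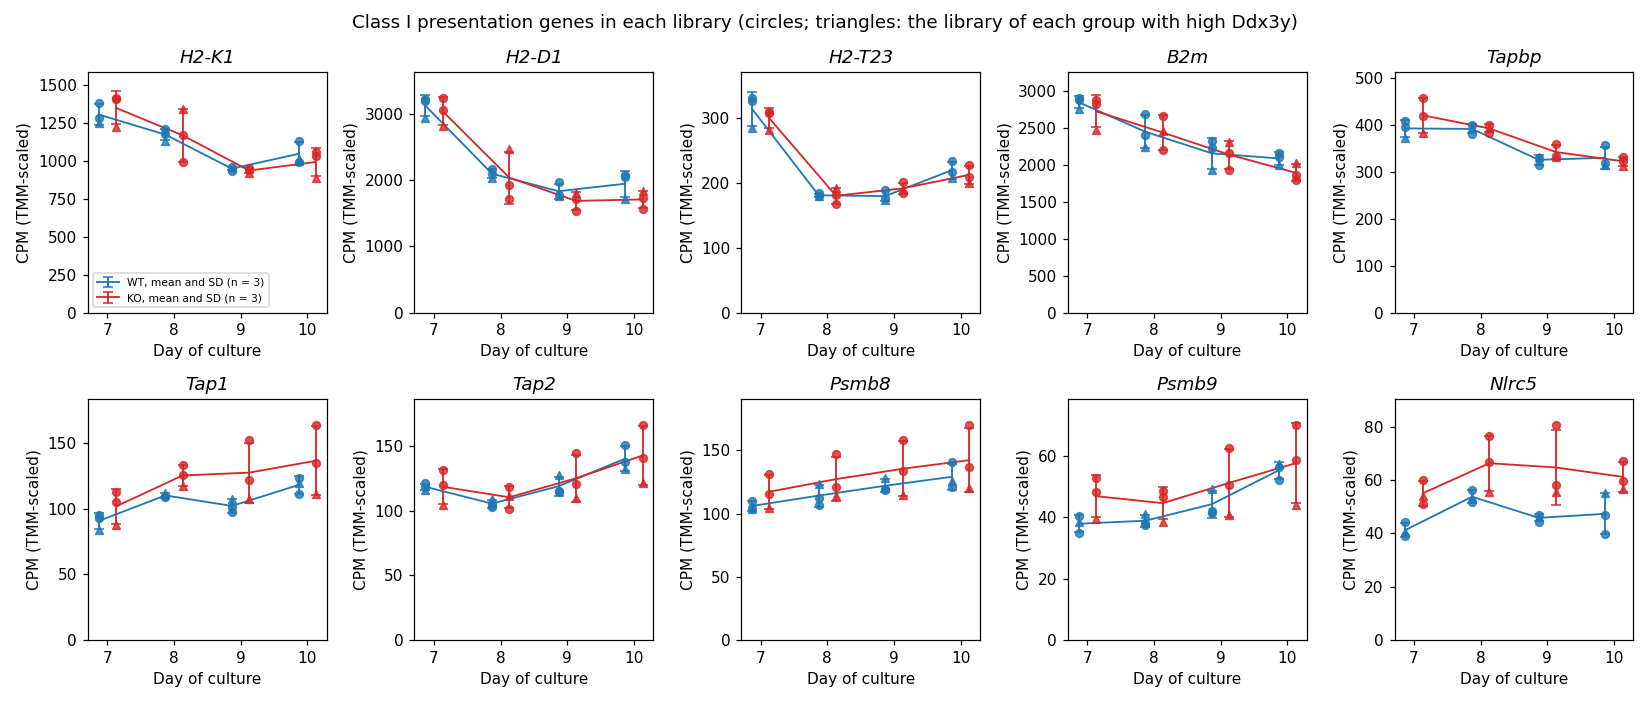
CPM after TMM scaling (y axis, from 0) of each of the 10 genes on culture days 7 to 10 (x axis) in WT (blue) and KO (red) cultures; each point is 1 library, triangles mark the library of each group with high Ddx3y, and lines join group means with SD bars (n = 3). H2-D1 goes from between 2824 and 3244 CPM on day 7 to between 1568 and 2074 CPM on day 10, while Tap1 and Psmb9 sit higher on day 10 than on day 7 in most libraries.

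From day 7 to day 10 the genes that passed moved in 2 directions. The 3 heavy chains, B2m and Tapbp fell in WT cultures and in KO cultures, while Tap1 rose in both and Psmb9 passed as higher in WT, and in KO under some of the alternatives. Thus 5 of 10 fell and 2 of 10 rose in WT, against 18.1% and 18.9% of all genes tested, and 5 of 10 fell and 1 of 10 rose in KO, against 17.1% and 19.7%. Over the alternatives the number that rose ran from 0 to 5 of 10 in each genotype and the number that fell from 2 to 5 in WT and 1 to 5 in KO, in fits that called 16.4% to 47.3% of all genes in WT and 16.3% to 51.6% in KO. The median of the 10 log2 fold changes was -0.03 in WT and -0.11 in KO, beside -0.02 and 0.00334 over all genes. In a bulk sample, fewer cells of a type and less RNA per cell cannot be told apart.

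H2-D1, a classical heavy chain that presents peptides to CD8+ T cells, fell the most. It was at 2943, 3201 and 3229 CPM in the WT libraries of day 7 and at 1722, 2074 and 2041 CPM in those of day 10. In KO it was at 2824, 3051 and 3244 CPM on day 7 and 1568, 1830 and 1727 CPM on day 10. Every day 10 library was below every day 7 library of its genotype, and the log2 fold change was -0.68 ± 0.12 in WT (SE, edgeR adjusted p = 0.000111) and -0.83 ± 0.12 in KO (adjusted p = 1.8e-05). H2-K1, the other classical heavy chain measured, was at 1249, 1283 and 1377 CPM on day 7 and 1013, 990 and 1130 CPM on day 10 in WT, a log2 fold change of -0.32 ± 0.10 (edgeR adjusted p = 0.0128). Its KO values went from 1221, 1405 and 1414 CPM to 1029, 888 and 1057 CPM, a log2 fold change of -0.44 ± 0.10 (edgeR adjusted p = 0.00125). The ranges of days 7 and 10 did not overlap in either genotype.

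H2-T23, which encodes the Qa-1 heavy chain, was at 284, 326 and 331 CPM on day 7 and 208, 217 and 233 CPM on day 10 in WT, with a log2 fold change of -0.52 ± 0.07 (edgeR adjusted p = 1.91e-05). In KO it was at 281, 308 and 308 CPM on day 7 and 227, 199 and 209 CPM on day 10, with -0.50 ± 0.07 (edgeR adjusted p = 3.31e-05). Its level was lower still on day 8, at 179 to 183 CPM in WT and 167 to 192 CPM in KO, which lay below day 10 without overlap in both. The steps after day 8 were -0.01 and 0.29 in WT and 0.09 and 0.15 in KO. B2m, the light chain shared by all these molecules, changed by -0.45 ± 0.10 in WT (edgeR adjusted p = 0.00147) and -0.53 ± 0.10 in KO (adjusted p = 0.000403), from 2759, 2911 and 2878 to 1995, 2114 and 2156 CPM in WT. Its KO libraries went from 2476, 2824 and 2879 to 1858, 2021 and 1801 CPM, again without overlap. Tapbp, which encodes tapasin, fell by 0.25 on the log2 scale in WT (SE 0.07, edgeR adjusted p = 0.00744) and by 0.38 in KO (adjusted p = 0.000253), from 372, 408 and 395 to 314, 318 and 356 CPM in WT.

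Tap1, which encodes a subunit of the TAP transporter, was at 83.6, 92.6 and 95.4 CPM on day 7 and at 119, 111 and 124 CPM on day 10 in WT. All day 10 libraries were above all day 7 libraries, and the log2 fold change was 0.38 ± 0.12 (edgeR adjusted p = 0.0198). In KO it was at 87.4, 113 and 105 CPM on day 7 and 164, 111 and 134 CPM on day 10, which overlapped, with a log2 fold change of 0.43 ± 0.12 (edgeR adjusted p = 0.0104). Psmb9, an inducible catalytic subunit of the proteasome, went from 38.6, 34.9 and 40.4 CPM to 57.5, 52.2 and 56.5 CPM in WT, a log2 fold change of 0.55 ± 0.15 (edgeR adjusted p = 0.00837). In KO its day 10 libraries were spread widely, at 70.2, 44.2 and 58.8 CPM, around a day 7 range of 39.6 to 52.9 CPM, and the log2 fold change of 0.30 ± 0.15 did not pass (edgeR adjusted p = 0.131). It passed in a fit with the mouse as a replicate block after the KO numbers were swapped to follow Ddx3y, 64 with 68 on day 8 and 64 with 67 on day 10 (the exchanged block; 0.29, limma adjusted p = 0.0413). Ddx3y places only the KO library with high Ddx3y on each day, and does not settle which of the other KO libraries share a mouse. Psmb9 also passed without the libraries labelled 67 (0.54, edgeR adjusted p = 0.00264) and without the 4 KO or all 8 libraries with high Ddx3y (0.35 each, edgeR adjusted p = 0.0204 and 0.0267). On TPM it passed at 0.58 (limma adjusted p = 0.0188), which was 0.33 relative to the median of all genes there. Tap2, the partner of Tap1, and Psmb8, another inducible catalytic subunit, had positive values that did not pass: 0.24 and 0.28 in WT and 0.27 and 0.28 in KO (edgeR adjusted p from 0.0575 to 0.0871). Both passed in both genotypes in the exchanged block (limma adjusted p from 0.0161 to 0.0264) and without the 4 KO libraries with high Ddx3y (edgeR adjusted p from 0.0229 to 0.047). Neither fit changed a WT library or its number, and the WT values stayed at 0.24 and 0.25 for Tap2 and 0.28 and 0.29 for Psmb8. The WT calls of these fits, here and below, are thus no added evidence from WT cultures. Without all 8 libraries with high Ddx3y, Tap2 passed in KO (0.29, edgeR adjusted p = 0.0484) but not in WT (0.28, adjusted p = 0.0639). Psmb8 then passed in neither (0.29 in WT and 0.31 in KO, edgeR adjusted p = 0.0979 and 0.0714). Without the libraries labelled 67 the KO values of Tap2 and Psmb8 were 0.44 and 0.47 (edgeR adjusted p = 0.000982 and 0.00183). Without those labelled 64 or 68, 0 of the 10 genes passed as higher in KO, Psmb9 included, in fits that called 21.9% and 24.8% of all genes. The KO library with high Ddx3y was labelled 67 on day 10 and 64 on day 7. Leaving out either label thus removed that library from day 10 or from day 7 but not from both. What this did to the values was not tested. The exchanged block called 9 of 10 genes in each genotype, beside 44% of all genes in WT and 44.1% in KO, where edgeR without it called 37% and 36.8%. For Nlrc5 the values were 0.20 in WT and 0.15 in KO (edgeR adjusted p = 0.262 and 0.395).

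**Figure D2:**
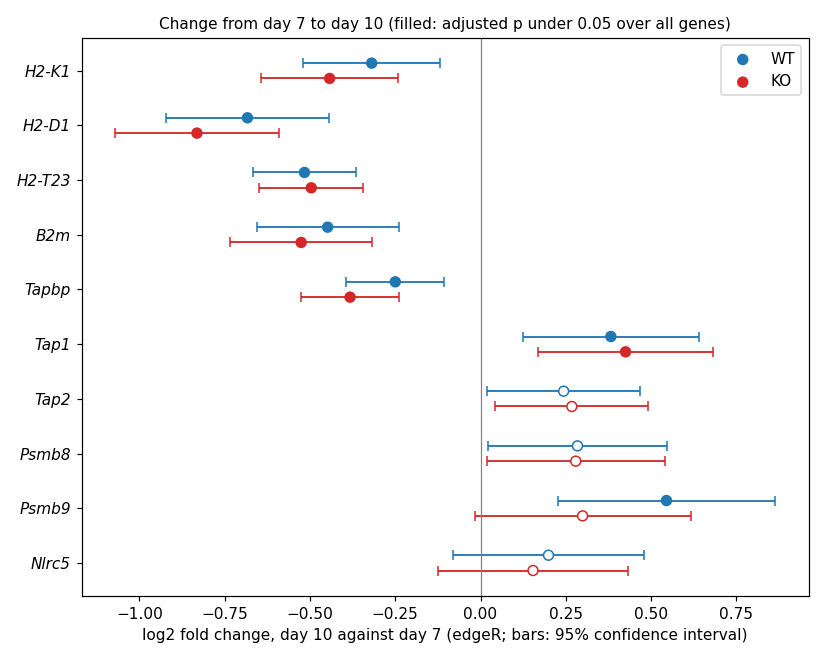
Log2 fold change of day 10 against day 7 (x axis) for each gene (y axis) in WT (blue) and KO (red), from edgeR; bars are 95% confidence intervals and filled points passed an adjusted p of 0.05 over all genes. The 5 genes of heavy chains, light chain and tapasin lie left of 0 in both genotypes (Tapbp in WT is at 0.03 on the TPM scale, -0.18 relative to the median of all genes there), and Tap1 lies right of 0 in both.

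The change over time was not shown to differ between the genotypes. For the difference between the KO and WT changes (the interaction), 0 of 10 genes passed in edgeR, beside 0.0619% of all genes, and 0 of 10 had an unadjusted p under 0.05. DESeq2 also called 0 of 10, beside 0.311% of all genes. Counts at an unadjusted p, here and below, are given without a share of all genes, and nothing is read from them. The 10 interaction values ran from -0.25 (Psmb9) to 0.04 (Tap1), and their 95% intervals together ran from -0.69 to 0.41 on the log2 scale, so differences of that size are not excluded.

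Leaving out 1 of the 3 WT mice ended the WT calls of Tap1, Psmb9 and H2-K1 whichever mouse was left out (adjusted p from 0.0559 to 0.166), and that of Tapbp without mouse 63 or 65 or with no filter on low counts (adjusted p = 0.0662). Without 1 mouse the log2 fold changes were 0.33 to 0.45 for Tap1, 0.54 to 0.58 for Psmb9 and -0.29 to -0.34 for H2-K1. For Tapbp they were -0.25 without mouse 63 and -0.19 without mouse 65. The share of all genes called went from 37% to between 22% and 24.1%. The KO call of Tap1 was lost without the libraries labelled 64 (log2 fold change 0.17, adjusted p = 0.275) or 68 (0.45, adjusted p = 0.053), and with only the groups compared in the fit (0.41, adjusted p = 0.0879). Label 64 marked the KO library with high Ddx3y on day 7 but not on day 10. The calls of H2-D1 held in all 16 alternative fits in both genotypes. On TPM, where the median of all genes moved by 0.21 in WT and 0.25 in KO, the falls of H2-K1, B2m and Tapbp did not pass in either genotype, nor did that of H2-T23 in KO. Relative to that median each of the 5 genes was still lower on day 10, from -0.18 (Tapbp) to -0.61 (H2-D1) on the log2 scale in WT. The split of calls was then 5 higher and 2 lower in WT and 5 higher and 1 lower in KO, beside 47.3% and 51.6% of all genes called, with Tap2, Psmb8 and Nlrc5 passing in both (0.31, 0.35 and 0.23 in WT and 0.31, 0.32 and 0.19 in KO, relative to the median).

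Sums of cell type markers moved over the same days, and a change in cell numbers cannot be told apart here from one in RNA per cell. The summed dendritic cell markers went from 2347 to 2938 CPM on day 7 to 5189 to 7027 CPM on day 10 in WT, and from 2644 to 3261 to 4681 to 7917 CPM in KO. The summed macrophage markers (8 of 8 above 1 CPM) went from 2251 to 2452 CPM down to 1334 to 1376 CPM in WT, and from 2184 to 2983 down to 1377 to 1801 CPM in KO. The summed neutrophil markers (8 of 8) were at 1656 to 3239 CPM and then 4004 to 5874 CPM in WT, and at 2225 to 5803 and then 2840 to 4758 CPM in KO, where the ranges overlapped. Their part in the changes of the class I genes was not tested.

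Day by day, H2-D1 and H2-T23 fell between days 7 and 8, the interval that followed the replating of day 7. In WT, H2-D1 (log2 fold change -0.58 ± 0.11, edgeR adjusted p = 0.00042) and H2-T23 (-0.80 ± 0.07, adjusted p = 5.36e-08) fell and Nlrc5 rose (0.38 ± 0.13, adjusted p = 0.0264), which is 3 of 10 genes beside 43.4% of all genes. In KO the same 2 heavy chains fell, H2-D1 by 0.58 and H2-T23 by 0.73 on the log2 scale (edgeR adjusted p = 0.00043 and 1.56e-07), which is 2 of 10 beside 42% of all genes. H2-T23 was at 179, 183 and 179 CPM in WT on day 8, a fall to about 0.576 of its day 7 level. H2-K1 was at -0.15 in WT and -0.21 in KO over this interval, and neither value passed (edgeR adjusted p = 0.205 and 0.0889). The KO value passed in the exchanged block (-0.21, limma adjusted p = 0.0439), at a mean of at least 50 counts (-0.23, edgeR adjusted p = 0.0444) and, at -0.37, without the 4 KO or all 8 libraries with high Ddx3y (edgeR adjusted p = 0.00314 and 0.00887). Tap1 lay higher on day 8 than on day 7 without overlap in both genotypes, and its values of 0.28 in WT and 0.30 in KO did not pass (edgeR adjusted p = 0.0721 and 0.0558). No share of all genes is given for separation between days, and nothing is read from it. The values of Tap1 passed in 6 of the 16 alternatives in WT and 5 of 16 in KO. Among them was the exchanged block (limma adjusted p = 0.0162 and 0.0099), which also called B2m in WT (-0.22, adjusted p = 0.0288). The WT call of Nlrc5 was lost without any 1 of the 3 WT mice (0.39 to 0.41, edgeR adjusted p from 0.0927 to 0.101) and without the 8 libraries with high Ddx3y (0.39, adjusted p = 0.0537). In KO, Nlrc5 was at 0.27 and did not pass (edgeR adjusted p = 0.112). On TPM it passed at 0.47 (limma adjusted p = 0.0324), which was 0.30 relative to the median of all genes there. Without the 4 KO libraries with high Ddx3y it passed at 0.38 (edgeR adjusted p = 0.0407). Without all 8 it did not (0.38, adjusted p = 0.0501).

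The ratio of the 2 classical heavy chains within a library went down over the same interval. H2-D1 over H2-K1, as TPM, was 2.73 ± 0.10 on day 7 and 2.04 ± 0.06 on day 8 in WT (SD, n = 3), with ranges of 2.67 to 2.84 and 1.98 to 2.10. In KO it was 2.57 ± 0.09 and then 1.98 ± 0.11, and it remained between 1.74 and 2.39 on days 9 and 10 in both genotypes. A pair of groups of 3 cannot go below p = 0.10 in an exact permutation test, so these ratios are given without one.

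After day 8 little passed. H2-K1 went from 1131, 1176 and 1206 CPM on day 8 to 950, 958 and 934 CPM on day 9 in WT, and from 1165, 994 and 1340 to 916, 936 and 952 CPM in KO. The days did not overlap in either genotype, though no share of all genes is given for such separation. The log2 fold changes of -0.31 ± 0.10 and -0.32 ± 0.10 did not pass in edgeR (adjusted p = 0.0642 and 0.0751). They did in the DESeq2 Wald test (adjusted p = 0.016 and 0.0173) and in the exchanged block (limma adjusted p = 0.0212 and 0.0245). Without the 4 KO libraries with high Ddx3y the KO value was -0.19 (edgeR adjusted p = 0.199), smaller than the -0.37 from day 7 to day 8 in that fit. In WT, Tapbp fell from day 8 to day 9 (log2 fold change -0.27 ± 0.07, edgeR adjusted p = 0.0306), 1 of 10 genes beside 5.4% of all, and H2-T23 rose from day 9 to day 10 (0.29 ± 0.07, adjusted p = 0.0343), 1 of 10 beside 3.6%. Both calls were lost when any 1 of the 3 WT mice was left out, with edgeR adjusted p from 0.188 to 0.289. The log2 fold changes were then -0.22 to -0.29 for Tapbp and 0.21 to 0.33 for H2-T23. The H2-T23 call was also lost without the KO libraries labelled 68 (0.29, edgeR adjusted p = 0.0533). In KO, edgeR called 0 of 10 from day 8 to day 9 (beside 2.33% of all genes), and DESeq2 called 2 of 10 (H2-K1 and Tapbp, beside 6.99%). Of the 10, 3 had an unadjusted edgeR p under 0.05, with no share of all genes given at that threshold. From day 9 to day 10 in KO, edgeR called 0 of 10 (beside 0.0963%) and DESeq2 0 of 10 (beside 1.65%). An unadjusted edgeR p under 0.05 was seen for 0 of 10. Without the libraries labelled 67, edgeR called 3 (Tap1, Tap2 and Psmb9, beside 14.2% of all genes in that fit). Label 67 marked the KO library with high Ddx3y on day 10 but not on day 9, so that library was removed from day 10 only.

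The inducible proteasome subunits take the place of standard ones when the immunoproteasome forms. A ratio of 2 genes within a library does not depend on scaling between libraries. Psmb8 over Psmb5 was 0.551 ± 0.010 on day 7 and 0.725 ± 0.108 on day 10 in WT, and 0.593 ± 0.069 and 0.787 ± 0.239 in KO (TPM ratios, SD, n = 3). Psmb9 over Psmb6 was 0.127 ± 0.014 and then 0.241 ± 0.051 in WT, and 0.171 ± 0.027 and then 0.255 ± 0.097 in KO. The day 7 and day 10 ranges did not overlap in WT for either ratio, and they overlapped in KO for both. Psmb10 over Psmb7, the third pair, went the other way in KO, from 1.68 ± 0.07 on day 7 to 1.28 ± 0.11 on day 10 without overlap. In WT it was at 1.36 ± 0.10 and then 1.25 ± 0.09, and the ranges overlapped. On day 7 its KO values of 1.60 to 1.72 lay above the WT values of 1.25 to 1.45, and those of Psmb9 over Psmb6, at 0.144 to 0.198, lay above the WT range of 0.111 to 0.137.

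**Figure D3:**
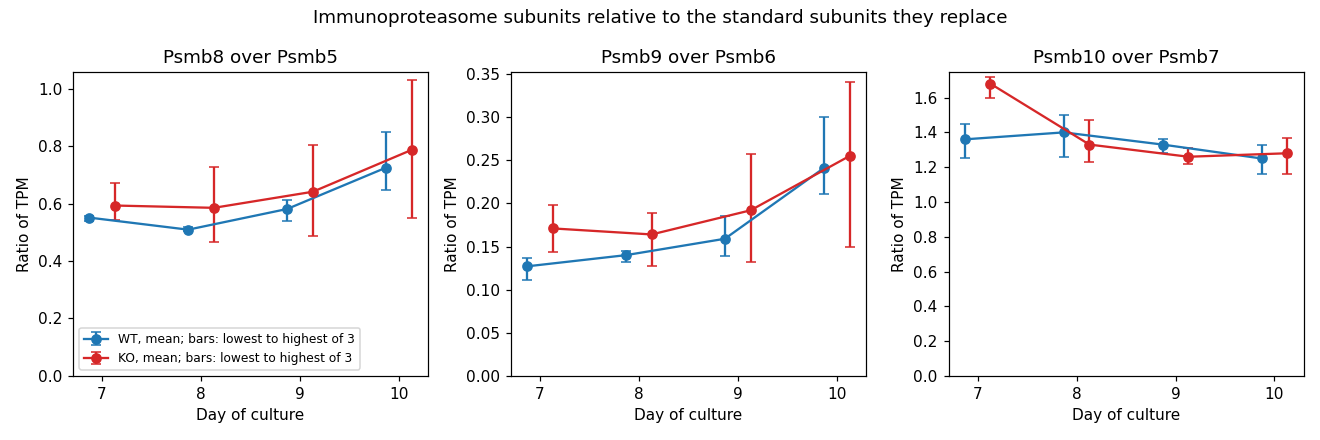
Ratio of TPM within a library (y axis, from 0) of each inducible proteasome subunit to the standard subunit it replaces, by day of culture (x axis); points are means of 3 libraries in WT (blue) and KO (red) and bars run from the lowest to the highest library. Psmb8 over Psmb5 and Psmb9 over Psmb6 are highest on day 10 in WT, and the KO bars reach 1.03 and 0.341 on that day.

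Between genotypes on the same day, 0 of the 10 genes passed on any day. Of all genes tested, edgeR called 1.45% on day 7, 0.00688% on day 8, the same 0.00688% on day 9 and 0.0138% by day 10, in either direction. Of the 10 genes, 1, 1, 2 and 1 had an unadjusted edgeR p under 0.05 on the successive days. No share of all genes is given at that threshold. The DESeq2 Wald test called 1 of 10 on day 9 (Nlrc5, adjusted p = 0.0499, beside 0.798% of all genes). It called 0 on days 7, 8 and 10, beside 4.17%, 0.117% and 0.296% of all genes. The heavy chains and B2m had values near 0, from -0.19 to 0.09 on the log2 scale. The 95% intervals of H2-K1 ran from -0.28 to 0.25 over the 4 days, those of B2m from -0.35 to 0.20 and those of H2-D1 from -0.43 to 0.20. A difference of 2-fold lies outside each of these intervals.

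Nlrc5 had the largest values. It was at 40.5, 44.3 and 38.9 CPM in WT and 54.1, 60.1 and 50.9 CPM in KO on day 7, with a log2 fold change of 0.42 ± 0.13 (edgeR adjusted p = 0.125; 0.0441 with only the groups compared in the fit). On day 9 the WT libraries read 46.1, 47.0 and 44.4 CPM and the KO libraries 55.4, 80.8 and 58.1 CPM (0.50 ± 0.13, adjusted p = 0.217). KO lay above WT without overlap on days 7, 9 and 10, and the ranges overlapped on day 8, with 51.8 to 56.4 CPM for WT and 55.7 to 76.5 CPM for KO. Tap1 lay above without overlap on days 8 and 9, though on day 9 the highest WT library (107.6 CPM) all but met the lowest KO library (107.7 CPM) (log2 fold change 0.32 ± 0.12, edgeR adjusted p = 0.444).

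KO lay above WT without overlap for 1, 1, 2 and 1 of the 10 genes on the 4 days in turn, beside 11.9%, 4.4%, 7.62% and 5.47% of all genes. Counts this small are not set apart from those shares on any of the days. Tap1 over Tap2 (TPM) was higher in KO than in WT without overlap on 4 of 4 days: 0.577 to 0.604 against 0.497 to 0.545 on day 7, 0.730 to 0.854 against 0.710 to 0.729 on day 8, 0.679 to 0.727 against 0.584 to 0.611 on day 9, and 0.634 to 0.680 against 0.556 to 0.626 on day 10. This ratio was 1 of 7 computed, and it was singled out after its values were seen. None of the other 6 separated on more than 1 day.

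When counts were summed per mouse number over the 4 days, Tap1 (log2 fold change 0.23 ± 0.04, edgeR adjusted p = 0.0248) and Nlrc5 (0.40 ± 0.07, adjusted p = 0.0278) passed as higher in KO, 2 of 10 beside 2.4% of 16313 genes. The other 8 did not, with values from -0.13 (H2-D1) to 0.20 (Psmb9, adjusted p = 0.059). Psmb9 passed in the DESeq2 Wald test (adjusted p = 0.0146) and with no filter on low counts (edgeR adjusted p = 0.0249), fits that called 10.9% and 5.2% of all genes. The median of the 10 was 0.03, beside -0.00578 over all genes. These sums rest on KO numbers that Ddx3y goes against. With the KO numbers exchanged, neither passed (edgeR adjusted p = 0.457 for Tap1 and 0.258 for Nlrc5) while the log2 fold changes stayed at 0.23 and 0.40, and 0.00613% of all genes were called. The average of the 4 daily contrasts over 24 libraries, which does not use the numbers, kept both (0.22 and 0.40, edgeR adjusted p = 0.0273 and 0.00107) and called 9.89% of all genes, but it counts libraries of different days as separate mice. Both calls were also lost on TPM (limma adjusted p = 0.0508 and 0.063), without KO mouse 64 or 67, and without WT mouse 65 or 66. Tap1 was lost without WT mouse 63 as well (edgeR adjusted p = 0.0628). The log2 fold changes in these fits were 0.21 to 0.30 for Tap1 and 0.34 to 0.44 for Nlrc5.

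**Figure D4:**
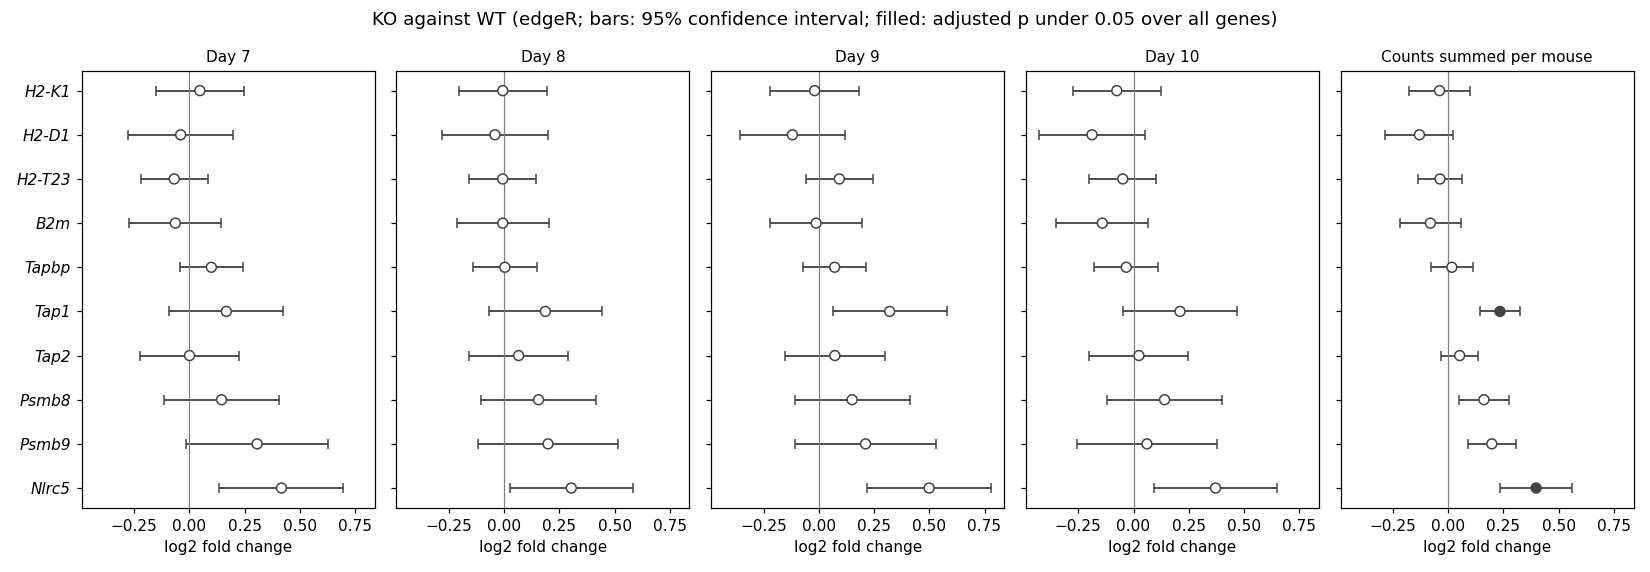
Log2 fold change of KO against WT (x axis) for each gene (y axis) on days 7 to 10 and for counts summed per mouse number, from edgeR; bars are 95% confidence intervals and filled points passed an adjusted p of 0.05 over all genes. Open points throughout the 4 days show that no gene passed on a single day, and Tap1 and Nlrc5 are filled in the last panel.

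On each day 1 KO library had high Ddx3y, and it was the lowest of its group on all 4 days for Tap1, Psmb8 and Psmb9, which is 3 of 10 genes beside 9.67% of all genes. Tap1 was at 87.4 CPM in that library on day 7 against 105 and 113 in the others, at 117 against 125 and 133 on day 8, at 108 against 122 and 152 on day 9, and at 111 against 134 and 164 on day 10. In WT the library with high Ddx3y was lowest on 1, 1 and 0 of 4 days for Tap1, Psmb8 and Psmb9. WT mouse 63 was lowest on 4 of 4 days for H2-D1 and B2m, and no share of all genes is given for WT.

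The same KO library also had the lowest sum of mature dendritic cell markers (Ccr7, Cd40, Cd80, Cd86, Cd83, Fscn1, Ccl22 and Relb, 8 of 8 above 1 CPM), a program in which dendritic cells raise costimulation and lymph node homing. That sum was 304 CPM on day 7 against 382 to 467 in the other KO libraries and 226 to 273 in WT, and 430 CPM against 526 to 1143 in KO and 344 to 366 in WT on day 8. It was 418 against 503 to 860 and 284 to 331 on day 9, and 503 against 668 to 1030 and 358 to 575 on day 10. The KO sums thus lay above the WT sums on days 7, 8 and 9 and overlapped them on day 10, and their part in the values of Nlrc5, Tap1 and Psmb9 was not tested. None of the 8 markers passed between genotypes on any day, beside at most 1.45% of all genes. No share of all genes is given for the separation of the sums. The sums weigh abundant markers most: Ccl22 ran from 54.3 to 550 CPM over the libraries and Cd40 from 0.923 to 6.98.

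In a fit without the 4 KO libraries with high Ddx3y, Psmb9 passed on day 7 (log2 fold change 0.42, edgeR adjusted p = 0.0232) and Tap1 (0.43) and Nlrc5 (0.61) passed on day 9 (adjusted p = 0.0426 each) as higher in KO. That fit called more of the whole table too, 5.67% of all genes on day 7 and 0.585% on day 9. With all 8 libraries with high Ddx3y left out, so that 2 libraries of each group remained, 0 of 10 passed on any day, beside 2.22% of all genes on day 7 and at most 0.0206% on the others. The values were then 0.43 for Psmb9 on day 7 (adjusted p = 0.0638) and 0.48 and 0.61 for Tap1 and Nlrc5 on day 9 (adjusted p = 0.123 and 0.132). Both fits were chosen after the data were seen.

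Among the other class I heavy chains, 11 of 15 listed genes were tested. From day 7 to day 8, 4 rose and 2 fell in WT and 2 rose and 2 fell in KO, beside 21.5% of all genes that rose and 22% that fell in WT and 21.1% and 20.9% in KO. Cd1d1, which presents lipids to NKT cells, rose in both (0.93 and 0.70), H2-Q6 rose in both (1.28 and 1.24), and Mr1, which presents vitamin B metabolites to MAIT cells, fell in both (-0.83 and -0.97, edgeR adjusted p = 6.78e-06 and 1.07e-06). From day 7 to day 10 Cd1d1 rose in WT (1.21 ± 0.14, edgeR adjusted p = 3.04e-06) and in KO (0.58 ± 0.14, adjusted p = 0.00288), and H2-T24 fell in KO (-0.68, adjusted p = 0.00324). In the sums per mouse number, H2-Q7 (0.45) and H2-Q6 (0.43) were higher and Mr1 (-0.29) lower in KO (edgeR adjusted p = 0.0174, 0.0217 and 0.0228), where 2.4% of all genes were higher and 1.46% lower. H2-Q6, H2-Q7, H2-K1 and H2-D1 are close copies of one another, so counts may be split between them.

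Of 10 other genes of peptide supply and folding, 7 rose from day 7 to day 8 in WT and 6 in KO, and none fell, beside the same shares of all genes (21.5% and 21.1% that rose). Erap1, the trimming peptidase of the endoplasmic reticulum, rose by 0.64 and 0.59 on the log2 scale, and the chaperone Calr by 0.82 and 0.66 (edgeR adjusted p at most 2.33e-05). Psme2, a subunit of the PA28 proteasome activator, rose by 0.62 and 0.49. Their median was 0.43 in WT and 0.34 in KO over this interval, beside -0.08 and -0.10 for the 10 class I genes. By day 10 against day 7, 2 rose and 0 fell in WT (Tapbpl, a relative of tapasin, at 0.58, and Psme2 at 0.32) and 1 rose and 1 fell in KO (Tapbpl at 0.42, Lnpep at -0.46), beside 18.9% and 18.1% of all genes in WT and 19.7% and 17.1% in KO. Of the 3 standard proteasome subunits, Psmb7 rose in both genotypes (0.19 and 0.21, edgeR adjusted p = 0.048 and 0.0308) and Psmb6 fell in WT (-0.35, adjusted p = 0.0317), beside the same shares of all genes.

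Of 12 transcription factors that act on class I promoters, 4 rose and 3 fell from day 7 to day 10 in WT and 3 rose and 2 fell in KO, beside 18.9% of all genes that rose and 18.1% that fell in WT and 19.7% and 17.1% in KO. Irf8, which dendritic cells need for their cross-presenting lineage, fell by 0.80 and 0.82 on the log2 scale (edgeR adjusted p = 1.84e-07 and 1.48e-07). Nfkb1, an NF-kappa B subunit, rose by 0.59 and 0.53. In the sums per mouse number Irf1 (0.20) and Nfkb1 (0.21) were higher in KO (edgeR adjusted p = 0.0392 and 0.0483), 2 of 12 beside 2.4% of all genes. On each single day 0 of 12 passed, beside 1.45%, 0.00688%, 0.00688% and 0.0138% of all genes on days 7 to 10. Rfx5, the partner of Nlrc5 on class I promoters, rose in KO (0.31, adjusted p = 0.0428) and was at 0.23 in WT (adjusted p = 0.135).

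Of 9 interferon receptors and signal carriers, 5 fell and 3 rose from day 7 to day 10 in each genotype, beside the same shares of all genes. The receptor chains fell, among them Ifnar2 (-0.75 in WT and -0.71 in KO), Ifnar1 (-0.50 and -0.45) and Ifngr1 (-0.51 and -0.72). The signal carriers Stat2 (0.89 and 0.64), Tyk2 (0.49 and 0.50) and Jak2 (1.21 in WT) rose in both genotypes (edgeR adjusted p at most 0.00237), while Jak1, another signal carrier, fell in both (-0.22 and -0.24, adjusted p = 0.0304 and 0.0195). In the sums per mouse number Irf9 (0.22) and Jak2 (0.35) were higher in KO (edgeR adjusted p = 0.0366 and 0.0452), 2 of 9 beside 2.4% of all genes. Of 9 cross-presentation genes, 3 rose and 3 fell in WT and 1 rose and 3 fell in KO, again beside those shares. Wdfy4, needed for cross-presentation of cell-bound antigen, rose (0.84 and 0.67), and the phagosomal oxidase subunits Cybb (-0.58 and -0.80) and Ncf4 (-0.30 and -0.24) fell (edgeR adjusted p at most 0.0168). Wdfy4 was also higher in KO in the sums per mouse number (0.40, edgeR adjusted p = 0.0311), 1 of 9 beside 2.4% of all genes. Calls in the sums per mouse number carry the same doubt about KO numbers as those of Tap1 and Nlrc5.

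Across the 24 libraries, the genes most like the mean of the 10 members (log2 CPM, each member centred on its own mean) were Rgs10 (Pearson r = 0.895), Ms4a4c (0.876), Stat3 (0.857), Nectin4 (0.85), Prkce (0.837), Arel1 (0.837), Il10ra (0.836), H2-T22 (0.835), Wwp2 (0.826) and Cnot8 (0.824), of 10500 genes ranked. The libraries share days and genotypes, so these values describe one course over time. The members themselves correlated with their own mean less closely, from 0.254 (Nlrc5) to 0.678 (H2-T23).

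Some counts may hold reads of neighbours. Tap1 and Psmb9 overlap by 212 bases on opposite strands, and the counts of Psmb9 came to 41.4% of those of Tap1. Tapbp shares 3422 bases with Zbtb22 on the same strand, whose counts came to 9.77% of those of Tapbp. Nlrc5 overlaps the antisense-oriented 9330175E14Rik, whose counts were 4.23% of those of Nlrc5. The strand setting of the counting is not given in the sources used here.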

How the data were processed

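For 24 libraries the authors deposited gene-level raw counts, TPM values and an annotation of gene symbols. Per the labels' protocols, RNA was poly(A)-selected and the kits kept strand. The submitters' processing notes name mm10, FastQC 0.11.9, STAR 2.6.1 and DESeq2 1.22.2, with no role. Of 55487 identifiers, 55094 had the same version in GENCODE M21, which gave positions.

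Counts were fitted with edgeR 4.0.16 in R 4.3.3 (filterByExpr, TMM, 1 coefficient per group over all 24 libraries, 16 residual degrees of freedom, quasi-likelihood test, Benjamini-Hochberg over 14535 genes, threshold 0.05). Sums per mouse number were fitted over 6 mice and 16313 genes. A simulated day 10 comparison over 14210 genes recovered 90% of 2-fold and 98% of 4-fold changes with 9 false calls; smaller changes, such as those of the members between genotypes, were not simulated. Alternatives were DESeq2 1.42.0 size factors and Wald test, no filter, a mean of at least 50 counts, only the groups compared, limma 3.58.1 on log2(TPM + 1), each mouse left out, and the mouse as a replicate block, labelled or with KO numbers exchanged. The exchanged numbers were built from Ddx3y values already known, and the 2 fits without libraries with high Ddx3y were chosen after seeing the data. Ddx3y places only the KO library with high Ddx3y on each day, so the other KO numbers in the exchanged block and sums are not settled.

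The members and lists were chosen with earlier results of these data known. Named genes were the 10 members, up to 3 per direction, list and comparison by smallest p among those past the threshold, the 10 most alike, and Arpc4. Markers and Jak1 were named besides. The pairing comes from the mouse numbers. Same-numbered libraries deviated together in WT (mean r = 0.359 over pairs of days). In KO the mean r was 0.479 between days 7 and 9, 0.279 and 0.226 for day 8 with these (single mice down to -0.122), and -0.268 to -0.356 with day 10. Counts are reads without molecular identifiers.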

Additional observations from a re-analysis of the deposited data

How the results depend on the processing

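Of the 22 calls of member genes, those of H2-D1 from day 7 to days 8 and 10 in both genotypes, H2-T23 from day 7 to day 8 in both and H2-T23 from day 7 to day 10 in WT held in all 16 alternatives. With the labelled mouse as a replicate block, no call of a member changed among 140 member results. The consensus correlation was 0.00464, and 0.23 with KO numbers exchanged. At 0.00464 the labelled block could hardly change a call, so it is no check of the pairing.
The counts of members called that moved by over 1.5 times were as follows, each with the share of all genes called in the same fit, and the cause was not tested. With only the groups compared, 1 passed for KO against WT on day 7 (Nlrc5; 2.36% of all genes), 6 for WT day 8 against 7 (56.2%) and 3 for WT day 9 against 8 (16.6%). The DESeq2 Wald test called 1 for KO against WT on day 9 (0.798%), 2 for WT day 9 against 8 (10.3%) and 2 for KO day 9 against 8 (6.99%). Without a filter on low counts, 1 passed for KO against WT on day 9 (0.314%), and 0 for WT day 9 against 8 (2.99%) and for WT day 10 against 9 (1.4%). On TPM, 5 passed for WT day 8 against 7 (46.8%), 4 for KO day 8 against 7 (46%), 0 for WT day 9 against 8 (3.58%), 0 for WT day 10 against 9 (2.61%) and 0 for the sums per mouse (0.647%). With KO numbers exchanged in the block, 5 passed for WT day 8 against 7 (49%), 2 for WT day 9 against 8 (11.7%), 4 for KO day 8 against 7 (47.8%), 2 for KO day 9 against 8 (8.91%), and 0 passed in the exchanged sums (0.00613%). Without the 4 KO libraries with high Ddx3y, 1 passed for KO against WT on day 7 (5.67%) and 2 on day 9 (0.585%), 2 for WT day 9 against 8 (12.1%), 2 for WT day 10 against 9 (7.77%) and 4 for KO day 8 against 7 (41.7%). Without all 8, 0 passed for WT day 9 against 8 (3.88%) and 0 for WT day 10 against 9 (0.785%). Among smaller moves, the 7 for WT day 10 against 7 became 9 with only the groups compared (41.2%), without the 4 KO libraries (41.3%) and in the exchanged block (44%). The 6 for KO day 10 against 7 became 9 without the 4 (35.9%) and in the exchanged block (44.1%), and 8 without all 8 (34.5%).
With each mouse left out in turn, the counts ran from 3 to 9 for WT day 10 against 7 (22% to 40.3% of all genes), 5 to 9 for KO day 10 against 7 (21.9% to 39.6%), 0 to 2 for WT day 9 against 8 (0.115% to 11.3%), 0 to 1 for WT day 10 against 9 (0% to 7.25%), 0 to 1 for KO day 9 against 8 (0.136% to 3.73%), 0 to 3 for KO day 10 against 9 (0% to 14.2%) and 0 to 2 for the sums (0.0663% to 6.85%), where DESeq2 and no filter each called 3. Tapbp turned on TPM, to 0.0319 for WT day 10 against 7 (-0.178 relative to all genes) and to 0.224 for WT day 8 against 7 (0.0592 relative). The lowest count of a member in a library was 745, and counting error was not compared with the spread between libraries.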
